A study of Mus musculus with 82 samples.

Results

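Glutathione, thioredoxin and metallothionein genes encode the main systems that remove peroxides and superoxide, conjugate reactive compounds and bind metal ions in a cell. Superoxide dismutases turn superoxide into hydrogen peroxide, which catalase, glutathione peroxidases and peroxiredoxins then reduce. Glutathione is made by glutamate-cysteine ligase (Gclc, the catalytic subunit, and Gclm, the modifier subunit) and glutathione synthetase (Gss), and is kept reduced by glutathione reductase (Gsr). Many of these genes are known targets of the transcription factor NRF2 (Nfe2l2), which KEAP1 holds at low protein level, so NRF2 activity is not read from its mRNA. Metallothioneins (Mt1, Mt2) are small cysteine-rich proteins that bind zinc and copper, and their transcription is known to respond to the metal-sensing factor MTF1. Low levels of reactive oxygen are a known trait of quiescent hematopoietic stem cells (HSCs).

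The members were taken by gene symbol alone: glutathione transferases of the alpha, kappa, mu, omega, pi, theta and zeta classes, microsomal glutathione transferases, glutathione peroxidases, peroxiredoxins, superoxide dismutases, thioredoxins and their reductases, and Cat, Nqo1, Hmox1, Gclc, Gclm, Gsr, Gss, Nfe2l2, Keap1, Mt1 and Mt2, without processed pseudogenes. This gave 59 of the 55376 genes in the count files, all of them protein coding. In 13 roles, the largest sets were 8 glutathione peroxidases, 8 theta, omega, zeta and kappa class transferases, 7 mu class transferases and 7 peroxiredoxins. Of the 59 members, 44 passed the filter on low counts in all comparisons, 10 in some and 5 in none.

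All mice were C57BL/6J males unless given otherwise. Young mice were bought from The Jackson Laboratory and old mice came from the NIA Aged Rodent Colony, so age and animal source cannot be told apart. Young HSCs (mice of 3 to 4 months, 4 RNA libraries, each from pooled mice) and old HSCs (24 to 26 months, 8 libraries, each from 1 mouse) were sorted as LSK CD34-Flk2-CD150+ bone marrow cells. Old HSCs were also transduced with a lentiviral scramble control (shControl) or with shRNA1 or shRNA2, both aimed at the shorter transcript variant of Btaf1, and GFP+ cells were taken after 3.5 days of culture or from irradiated young female CD45.1 B6.SJL recipients as LSK CD48-CD150+CD45.2+GFP+ cells, with 2 libraries for each vector in each place. Young common myeloid (CMP), granulocyte-monocyte (GMP) and megakaryocyte-erythroid (MEP) progenitors had 2 libraries each. Young and old HSCs were further profiled by ATAC-seq (4 young libraries and the 4 old ones numbered 5 to 8, other old libraries of the study not analysed here) and H3K27ac ChIP-seq (2 libraries each), and young HSCs by H3K4me3 and H3K27me3 ChIP-seq. Each library after transplantation pooled cells of 2 to 4 recipients. The sources used here do not say whether both libraries of a vector came from separate donors, so the p-values of the knockdown comparisons measure only the spread between those libraries.

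Read totals on genes ran from 20475764 to 24654742 in the HSC age series, 33177394 to 36510850 in the progenitors and 37292602 to 42737054 in culture, and from 37601706 to 42142361 after transplantation. Levels are given as CPM, the read count of a gene relative to its library's total, scaled within the age series, the progenitors and the 12 knockdown libraries, so levels of different series are set side by side without a test. HSC marker genes summed to between 3060 and 3280 CPM in young and between 3120 and 3460 CPM in old HSCs. The sum was 1380 to 1510 CPM in culture and 1840 to 2260 CPM after transplantation. Erythroid markers summed to between 13600 and 14300 CPM in MEP, and granulocyte-monocyte markers to between 62200 and 63400 CPM in GMP. Btaf1 at the gene level, which does not separate its variants, differed by a log2 fold change of -0.31 (adjusted p = 0.00151, edgeR) between shRNA and control libraries in culture and by -0.37 (adjusted p = 0.791, edgeR) after transplantation.

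Per kilobase of exon, the glutathione peroxidase Gpx1 had the highest level of the members in young HSCs, at 517 ± 15.8 CPM per kb (SD, n = 4). The mu class transferase Gstm1 followed at 197 ± 6.52 CPM per kb. Thioredoxin Txn1 came next at 172 ± 10.2 CPM per kb, above the peroxiredoxin Prdx1 at 124 ± 3.84 CPM per kb and the phospholipid hydroperoxide reductase Gpx4 at 117 ± 4.81 CPM per kb. The order of these 5 was the same in old HSCs, where Gpx1 stood at 449 ± 25.1 CPM per kb (SD, n = 8). In sixth place stood Prdx6, at 107 ± 3.44 CPM per kb, in young HSCs and Mt1, at 112 ± 8.62 CPM per kb, in old HSCs, where Prdx6 was at 108 ± 5.85 CPM per kb. The ranges of mean ± SD overlapped for the neighbours Prdx1 and Gpx4 in young HSCs and for Gpx4, Mt1 and Prdx6 in old HSCs, so the order of those genes is not resolved. At the other end, Gpx2, Gpx5, Gpx6, Gsta1, Gsta2, Gsta3, Gstt4 and Sod3 were near 0 in most libraries.

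Both metallothioneins, 3 mu class transferases and 2 glutathione peroxidases rose with age in HSCs, and 1 microsomal transferase fell. A gene was called changed at an adjusted p below 0.05 (edgeR quasi-likelihood test, Benjamini-Hochberg over all genes tested) and a fold change above 1.5. Of 51 members tested, 7 were called higher and 1 lower in old HSCs, 13.7% and 1.96% of the members, against 4.69% and 2.83% of the 21522 genes tested. The median log2 fold change was 0.08 over the members and -0.01 over all genes. In bulk samples, fewer cells of a type and less RNA per cell cannot be told apart.

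**Figure D1:**
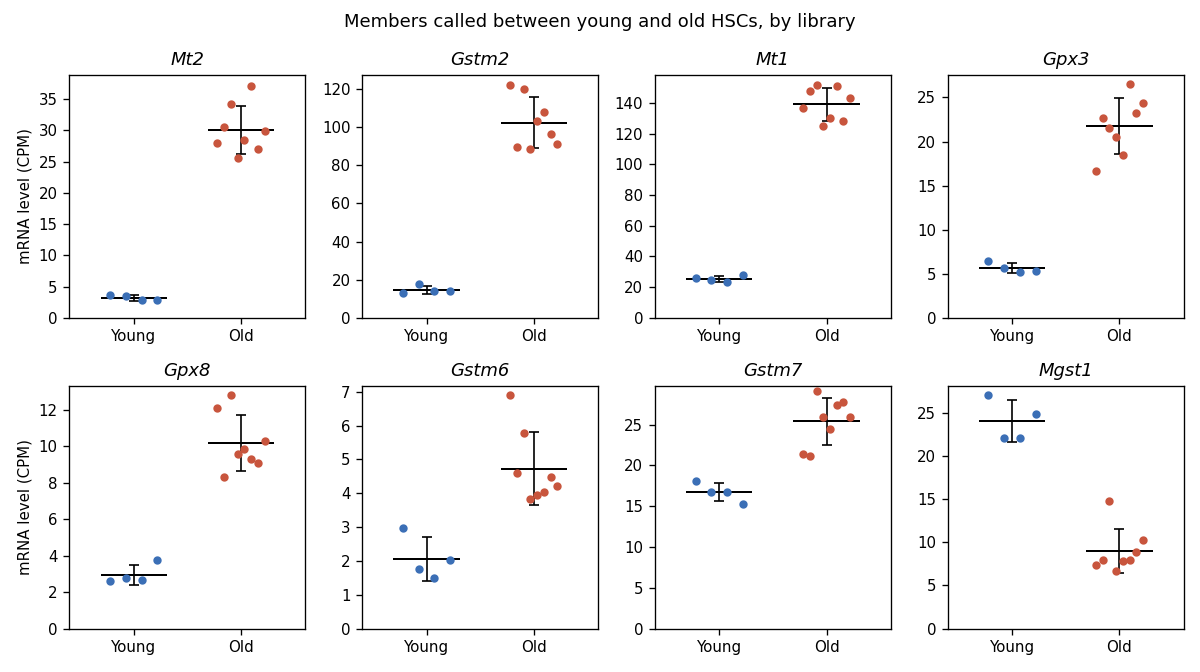
mRNA level in CPM of each member called between young (blue, 4 libraries) and old (red, 8 libraries) HSCs. Points are libraries, horizontal lines are means and error bars are SD. Young and old libraries are apart in all 8 panels, with Mgst1 the one gene lower in old HSCs, where 1 library stands at 14.8 CPM.

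Mt2 (chr8:94172664-94173568, GRCm38/mm10) was at 3.72, 3.44, 2.80 and 2.80 CPM in the 4 young libraries, and at 25.6 to 37.2 CPM (median 29.2) in the 8 old ones. The log2 fold change was 3.24 (SE 0.117, adjusted p = 1.34e-15, edgeR). Mt1 (chr8:94179082-94180327), its neighbour, stood at 25.7, 24.5, 23.4 and 27.9 CPM in young libraries and at 125 to 152 CPM (median 140) in old ones, a log2 fold change of 2.45 (SE 0.0658, adjusted p = 5.91e-18, edgeR). No old library of either gene came near the highest young one. Together the pair made up 28.6 ± 1.95 CPM of the young transcriptome (SD, n = 4) and 169 ± 14.3 CPM of the old (SD, n = 8).

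Gstm2 (chr3:107981702-107986453), a mu class enzyme that conjugates glutathione to electrophiles, had 13.1, 17.6, 13.8 and 14.0 CPM in young libraries and 88.7 to 122 CPM (median 100) in old ones. Its log2 fold change was 2.81 (SE 0.117, adjusted p = 1.54e-10, edgeR). Gstm6 and Gstm7, of the same gene cluster on chromosome 3, rose by less. Gstm6 went from 2.06 ± 0.642 CPM (SD, n = 4) to 4.73 ± 1.07 CPM (SD, n = 8), a log2 fold change of 1.19 (adjusted p = 5.89e-05, edgeR). Gstm7 went from 16.8 ± 1.14 to 25.4 ± 2.87 CPM, a log2 fold change of 0.60 (adjusted p = 9.26e-06, edgeR), close to the threshold of 1.5-fold, and leaving out young library 4 or old library 3, 6 or 7 put it at 0.56, 0.57, 0.58 and 0.58, under that threshold. Gstm1, Gstm4 and Gstm5 had log2 fold changes of 0.39, 0.31 and 0.21, each with an adjusted p below 0.05 but under 1.5-fold. Mu class genes are near-identical in parts of their sequence, and no source used here gives how reads that match several of them were counted, so the split of reads among them is uncertain.

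Of the glutathione peroxidases, Gpx3, a secreted selenoprotein, and Gpx8, a membrane enzyme of the endoplasmic reticulum, were called higher. Gpx3 (chr11:54902453-54910377) was at 6.40, 5.59, 5.15 and 5.27 CPM in young and 16.6 to 26.5 CPM (median 22.1) in old libraries, with a log2 fold change of 1.95 (SE 0.117, adjusted p = 1.06e-11, edgeR). Gpx8 (chr13:113042753-113046410) was at 2.59, 2.75, 2.67 and 3.74 CPM in young and 8.30 to 12.8 CPM (median 9.70) in old libraries, with a log2 fold change of 1.78 (SE 0.140, adjusted p = 9.69e-10, edgeR). The abundant cytosolic Gpx1 stood at 746 ± 22.7 CPM in young HSCs and at 647 ± 36.2 CPM in old ones, a log2 fold change of -0.21 (adjusted p = 0.000592, edgeR), and no library of one age overlapped the other. Gpx4, which protects membrane lipids, had a log2 fold change of -0.03 (adjusted p = 0.708, edgeR).

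Mgst1 (chr6:138140316-138156755), a microsomal transferase that also reduces lipid peroxides, fell from 27.1, 22.1, 22.1 and 24.8 CPM in young libraries to 6.72 to 14.8 CPM (median 7.95) in old ones. The log2 fold change was -1.42 (SE 0.162, adjusted p = 9.40e-06, edgeR). Catalase (Cat) had the next lowest value among members with an adjusted p below 0.05, at 197 ± 10.6 CPM in young and 136 ± 6.98 CPM in old HSCs with no overlap of libraries, but its log2 fold change of -0.53 (adjusted p = 2.25e-09, edgeR) was under 1.5-fold. Sod1 and Sod2, the cytosolic and mitochondrial superoxide dismutases, had log2 fold changes of 0.09 and 0.07 and adjusted p-values of 0.305 and 0.294 (edgeR).

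Besides the 8 members called, 16 had an adjusted p below 0.05 at a fold change under 1.5. The 4 genes of glutathione synthesis and reduction, of which 0 were called, were among these 16, with log2 fold changes of 0.48 for Gclm, 0.35 for Gsr, 0.21 for Gclc and 0.21 for Gss. Gclm was at 149 ± 7.91 CPM in young and 208 ± 10.1 CPM in old HSCs, and Gsr at 87.8 ± 1.14 and 112 ± 7.65 CPM, and neither gene's libraries overlapped between ages. The theta class transferases Gstt1 (0.54) and Gstt3 (0.33), the pi class Gstp1 (0.27), the peroxiredoxin Prdx1 (0.21) and Nfe2l2 (0.22) were also positive, while Mgst2 (-0.21) and Txnrd3 (-0.22) were negative. Counting all 24 members with an adjusted p below 0.05, 19 of the 51 tested were higher and 5 lower in old HSCs, against 11.9% and 8.67% of the 21522 genes at the same adjusted p and any fold.

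**Figure D2:**
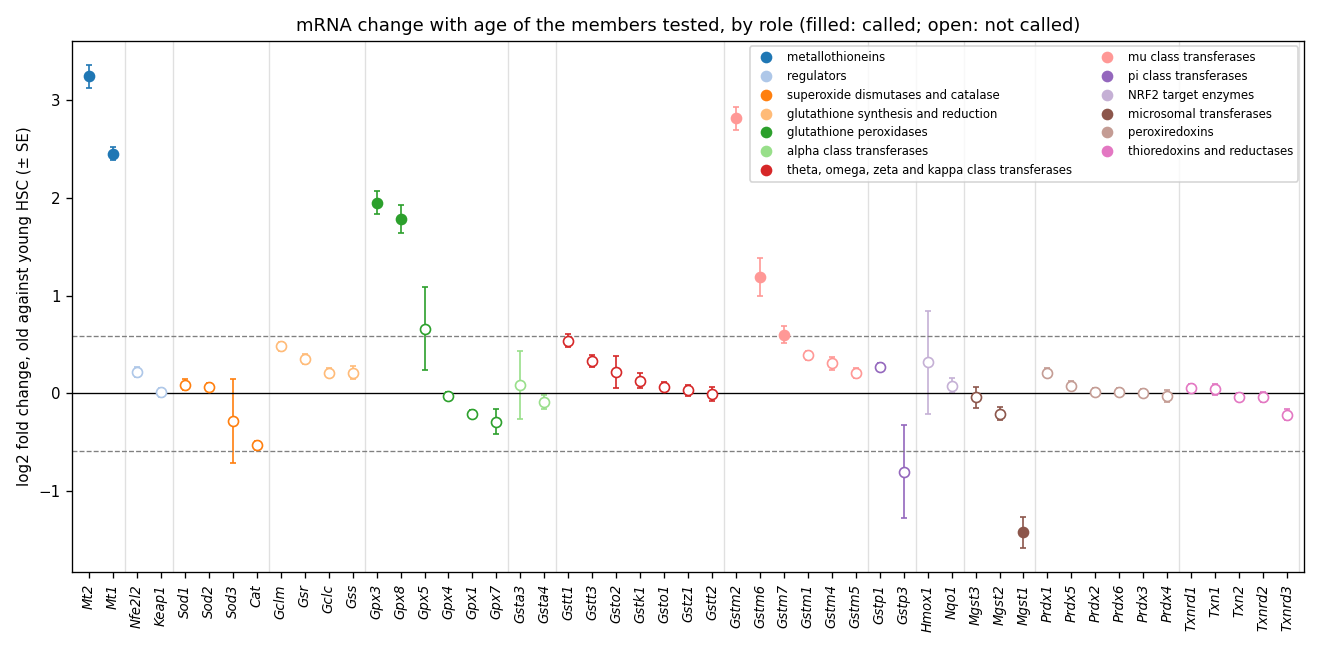
Log2 fold change of mRNA between old and young HSCs for the 51 members tested, grouped and coloured by role, with SE as error bars and dashed lines at 1.5-fold. Filled points are the 8 members called, and most peroxiredoxins, thioredoxins and superoxide dismutases lie close to 0.

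Keap1, at 144 ± 7.42 CPM in old and 144 ± 7.75 CPM in young HSCs, had a log2 fold change of 0.01 (adjusted p = 0.959, edgeR). The NRF2 target Nqo1 had one of 0.08 (adjusted p = 0.579, edgeR). Hmox1, the heme-degrading enzyme, was at 16.8 to 20.8 CPM in young libraries and spread from 7.96 to 68.0 CPM in old ones, a log2 fold change of 0.32 (adjusted p = 0.759, edgeR) that was -0.12 without old library 3. Among the peroxiredoxins and thioredoxins, Prdx2, Txn1 and Txnrd1 had log2 fold changes of 0.01, 0.04 and 0.06, and 0 of the 6 peroxiredoxins and 0 of the 5 thioredoxin genes tested were called. Of other genes of the pathway, 1 of 20 NADPH and NRF2 target genes was called higher (Aldh3a1, an aldehyde dehydrogenase, log2 fold change 3.36), as were 1 of 15 glutaredoxin and glutathione handling genes (Ggt1, a gamma-glutamyl transferase, 1.77) and 1 of 13 zinc and metal response genes (Mt3, 1.98, at 0.743 ± 0.302 CPM in old HSCs). These counts were close to the 4.69% called higher among all genes. None of these lists had a gene called lower, and 0 of 15 regulators, including the NRF2 antagonist genes Bach1 and Bach2, were called in either direction.

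Markers of other cell types also moved with age. Megakaryocyte markers summed to between 639 and 684 CPM in young and between 1090 and 1460 CPM in old HSCs, granulocyte-monocyte markers to 143 to 274 and 306 to 407 CPM, and B cell markers to 126 to 252 and 39.7 to 204 CPM, with no marker of these 3 lists at 0 in a group. These sums do not stand for whole lists. Of 7 megakaryocyte markers tested, Itga2b and Vwf were called higher and Ppbp lower. Of 7 granulocyte-monocyte markers tested, Prtn3 was called higher and Mpo lower. Of 10 B cell markers, 6 were called lower and 0 higher. Dissociation stress genes summed to between 282 and 319 CPM in young and between 259 and 406 CPM in old HSCs. Their part in the changes of the members was not tested.

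The 300 bases around the annotated starts of Mt1, Mt2 and Gstm2, the members with the largest rises, and of Gclm, the member called in the cultured knockdown, are shown here 5′ to 3′ from RefSeq (GRCm38.p6), since all 4 lay in accessible chromatin. Each runs from 250 bases before to 50 bases after the start. Capitals mark the metal response element core (TGCACNC or TGCGCNC, either strand) in Mt1 and Mt2, and the antioxidant response element core (TGACNNNGC, here on the opposite strand) in Gclm. Gstm2 held neither motif.
Mt1, chr8:94178839-94179138, plus strand: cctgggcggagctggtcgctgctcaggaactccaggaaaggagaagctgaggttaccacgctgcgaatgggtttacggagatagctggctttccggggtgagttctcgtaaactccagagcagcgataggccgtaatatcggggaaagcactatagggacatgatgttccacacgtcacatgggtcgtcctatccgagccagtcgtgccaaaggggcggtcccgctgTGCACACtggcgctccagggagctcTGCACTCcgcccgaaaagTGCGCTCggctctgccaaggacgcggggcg
Mt2, chr8:94172368-94172667, plus strand: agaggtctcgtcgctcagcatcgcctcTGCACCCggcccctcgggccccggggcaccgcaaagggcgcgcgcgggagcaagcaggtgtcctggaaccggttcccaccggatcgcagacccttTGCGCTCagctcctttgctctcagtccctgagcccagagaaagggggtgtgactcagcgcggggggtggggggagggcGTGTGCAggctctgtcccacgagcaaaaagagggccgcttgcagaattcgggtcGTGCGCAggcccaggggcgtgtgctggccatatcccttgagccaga
Gstm2, chr3:107986371-107986670, minus strand: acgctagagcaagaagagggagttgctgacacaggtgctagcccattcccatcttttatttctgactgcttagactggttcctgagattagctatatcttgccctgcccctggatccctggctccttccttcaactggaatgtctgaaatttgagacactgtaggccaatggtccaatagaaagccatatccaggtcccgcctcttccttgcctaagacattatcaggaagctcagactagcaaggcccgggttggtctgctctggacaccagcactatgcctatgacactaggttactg
Gclm, chr3:122245307-122245606, plus strand: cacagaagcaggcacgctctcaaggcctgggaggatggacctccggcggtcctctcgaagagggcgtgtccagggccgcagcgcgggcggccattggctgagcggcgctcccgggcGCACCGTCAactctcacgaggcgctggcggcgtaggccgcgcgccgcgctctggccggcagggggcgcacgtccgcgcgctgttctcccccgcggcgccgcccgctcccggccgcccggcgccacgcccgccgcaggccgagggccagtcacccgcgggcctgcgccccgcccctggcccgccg
The Mt1 window held 3 metal cores and the Mt2 window 4, and Mt2 also held 1 antioxidant core, left in lower case. Gclm held 3 metal cores as well, 1 of them overlapping its antioxidant core. At least 3 metal cores were found in 1.97% of the 32851 promoters of all genes, and among the members only in Gclm, Mt1 and Mt2. At least 1 metal core was present in 25.7% of all promoters and in 18 of the 65 promoters of members (27.7%), and at least 1 antioxidant core in 12.4% and in 10 of 65 (15.4%). The 65 promoters covered 51 of the 59 members.

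In ATAC-seq, the start sites of Mt1, Mt2 and Gstm2 were more accessible in old HSCs, and that of Mgst3 was less so. A region was counted for a member when it overlapped the stretch from 1000 bases upstream to 100 bases downstream of an annotated start, and was called at an adjusted p below 0.01 (edgeR) and a fold change above 1.5. Of 58 such regions at 47 members, 55 were tested, 3 were called higher and 1 lower, against 3.13% and 2.48% of the 20848 tested promoter regions of all genes. At any fold, 14 member regions (25.5%) were lower and 3 (5.45%) higher at that adjusted p, against 21.5% and 5.54% of promoter regions, and the median log2 fold change was -0.14 over member regions and -0.12 over promoter regions. Both shares of the members were close to those of promoters in general.

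At Gstm2 (chr3:107986139-107986758, mm10, spanning the start) the 4 young libraries had 1.44, 1.75, 1.34 and 1.81 CPM and the 4 old ones 4.32, 4.97, 4.83 and 4.38 CPM, a log2 fold change of 1.58 (SE 0.185, adjusted p = 5.47e-10, edgeR). The Mt1 region (chr8:94178767-94179964) had 16.6, 17.4, 18.3 and 15.9 CPM in the young libraries against 31.4, 24.5, 28.0 and 29.5 CPM in the old ones (log2 fold change 0.76, adjusted p = 2.82e-12, edgeR). For Mt2 (chr8:94172011-94173669) the values were 14.4, 18.6, 18.9 and 15.5 CPM against 24.7 to 31.0 CPM, a log2 fold change of 0.71 (adjusted p = 3.81e-10, edgeR). In all 3 regions every old library lay above every young one. The Mgst3 region (chr1:167393271-167394543) was at 74.8 ± 4.53 CPM in young HSCs and at 47.2 ± 1.56 CPM in old ones (SD, n = 4 each), a log2 fold change of -0.63 (adjusted p = 4.55e-16, edgeR), while its mRNA had one of -0.04 (adjusted p = 0.841, edgeR).

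Gpx3 and Gpx8, whose mRNA rose, had no called region. Accessibility at the Gpx3 start had a log2 fold change of -0.23 (adjusted p = 0.144, edgeR) and at the Gpx8 start of 0.29 (adjusted p = 0.0267, edgeR). Of 2 regions at Mgst1, the member whose mRNA fell, the upstream one had a log2 fold change of -0.41 (adjusted p = 1.41e-06, edgeR), under 1.5-fold, and the other had 0.13 (adjusted p = 0.166, edgeR).

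**Figure D3:**
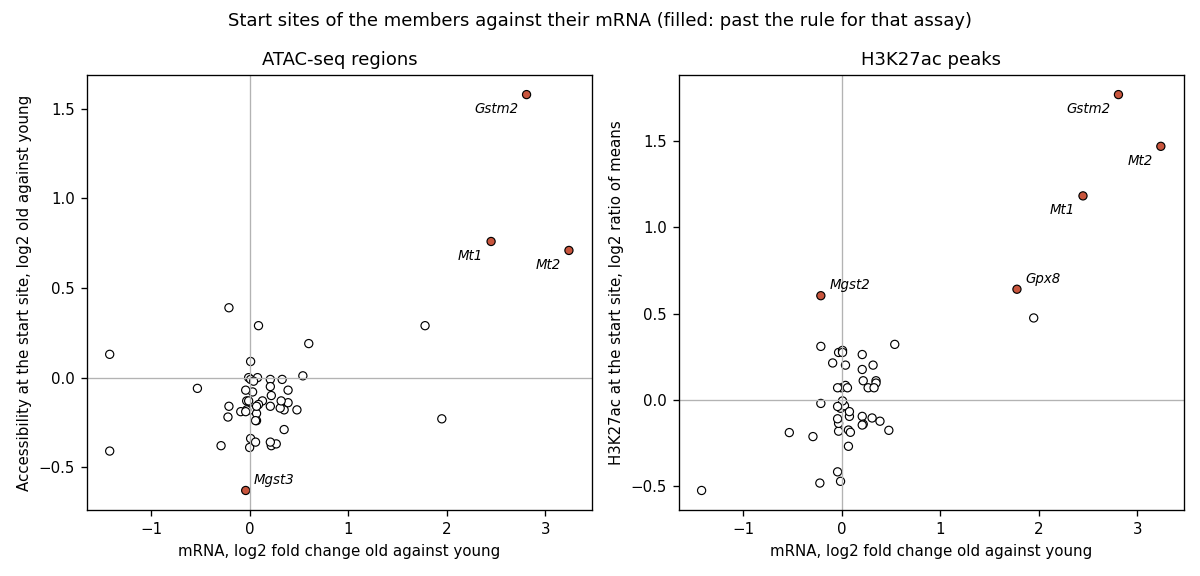
Change of accessibility (left, log2 fold change of ATAC-seq counts) and of H3K27ac (right, log2 ratio of mean signals) at start sites of members, plotted against the log2 fold change of their mRNA, old against young HSCs. Filled points passed the rule for that assay: Gstm2, Mt1 and Mt2 lie at the upper right in both panels, and Mgst3 and Mgst2 lie near 0 on the mRNA axis.

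H3K27ac, a mark of active promoters and enhancers, was read by the rule of the study, a ratio of old to young mean signal above 1.5 and at least 1.2 for every old and young pair (or the inverse), which is no test. Of 50 peaks near the start of 44 members, 5 were higher and 0 lower in old HSCs, against 2.71% and 1.1% of the 13392 such peaks of all genes. Gstm2 had 0.375 and 0.828 in the young and 1.82 and 2.28 in the old libraries, in units of signal adjusted for sequencing depth, a ratio of 3.41. That ratio was 5.47 without young library 2 and 2.48 without young library 1. Mt2 had 1.14 and 1.15 against 2.73 and 3.60, a ratio of 2.77, and Mt1 had 1.53 and 1.60 against 3.18 and 3.93, a ratio of 2.27. Gpx8 followed with a ratio of 1.56 and Mgst2 with 1.52, while the mRNA of Mgst2 had a log2 fold change of -0.21. Gpx3 had a ratio of 1.39 and Mgst1 one of 0.695, both short of the rule. In gene bodies, 2 of 13 member peaks passed the rule, at Txnrd2 (ratio 1.86) and Gstm6 (1.71), and 0 were lower, against 12% higher and 3.03% lower of the 13680 gene-body peaks of all genes, so the count was close to the background. Without young library 2 the ratio at Gstm6 was 1.42, short of the rule. Leaving out old library 1 raised the number of member peaks past the rule from 7 to 11, of which 9 were higher and 2 lower.

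In young HSCs, H3K4me3 covered the start windows of 45 of 59 members and the repressive mark H3K27me3 those of 18, which is 76.3% and 30.5%, against 65.8% and 35.6% of the 21783 protein-coding genes of the count files. Both marks touched the windows of 8 members (13.6%, against 21% of the protein-coding genes), namely Gpx3, Gpx8, Gsta4, Gsto2, Gstt1, Mt1, Mt2 and Sod2, and neither those of Gsta1, Gstm2, Gstm6 and Mgst2. The H3K27me3 domains at Sod2 (chr17:13005001-13005999) and Gstt1 (chr10:75799001-75823999) lay wholly upstream of the gene. Mt1 and Mt2 sat in 1 H3K27me3 domain of 72999 bases (chr8:94116001-94188999). Of the 7 members that rose with age, 4 carried both marks in young HSCs (Mt1, Mt2, Gpx3 and Gpx8) and 2 carried neither (Gstm2 and Gstm6). Of the 786 protein-coding genes called higher with age, 55% carried both marks and 7.76% neither, so the share of both marks among these members was close to that of all genes that rose.

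Old HSCs with shRNA against the Btaf1 variant were set against the control in culture and after transplantation. In culture Gclm rose, and 0 of 50 members tested were called lower. The called share was 1 of 50 members, against 0.582% of 19763 genes higher and 0.324% lower. Gclm had 344 and 354 CPM with the control, 552 and 541 CPM with shRNA1, and 502 and 499 CPM with shRNA2, so all 4 shRNA libraries lay above both controls. The log2 fold change was 0.59 (SE 0.0478, adjusted p = 1.46e-05, edgeR), at the 1.5-fold threshold. Without control library 1, shRNA1 library 1 or shRNA1 library 2 it was 0.57, 0.56 and 0.57, and with shRNA2 alone 0.52, each under that threshold, and with shRNA1 alone it was 0.65.

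Hmox1 had the widest difference, with 19.9 and 33.2 CPM in control, 84.4 and 72.6 CPM in shRNA1 and 60.6 and 62.8 CPM in shRNA2 libraries. All 4 shRNA libraries were above both controls, yet the log2 fold change of 1.41 (SE 0.284) did not pass the edgeR test (adjusted p = 0.108). DESeq2 gave the same log2 fold change with an adjusted p of 5.21e-05, and edgeR gave 1.82 (adjusted p = 0.0288) without control library 2 and 1.08 (adjusted p = 0.122) without control library 1. A further 5 members had an adjusted p below 0.05 under 1.5-fold: Mt2 (log2 fold change 0.43), Mt1 (0.34), Gpx1 (0.26), Gstp1 (0.24) and, lower, Prdx4 (-0.34). The share of all genes at that adjusted p and any fold was not computed for this comparison. Mt1 was at 619 and 672 CPM with the control and at 780 to 871 CPM with either shRNA.

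With each shRNA alone, 10 of 50 members had an adjusted p below 0.05 for 1 shRNA and not for the other. The difference between the shRNAs was not tested. The share of all genes with such a split was not computed, so the count cannot be set against other genes. Among these 10 members, Cat had a log2 fold change of 0.10 with shRNA1 (adjusted p = 0.136, edgeR) and -0.36 with shRNA2 (adjusted p = 4e-05, edgeR). Prdx3 had -0.07 (adjusted p = 0.41, edgeR) and -0.51 (adjusted p = 2.76e-06, edgeR). Nfe2l2, Keap1, Gclc, Gsr and Nqo1 had log2 fold changes of 0.05, 0.08, 0.09, 0.12 and 0.11 over both shRNAs, and none of them passed the test (edgeR). With 1 shRNA alone, Gclc had 0.15 with shRNA1 (adjusted p = 0.039, edgeR). Nfe2l2 had 0.15 (adjusted p = 0.0484, edgeR) and Gsr 0.16 (adjusted p = 0.0266, edgeR) with shRNA2. In the wider pathway, Ephx1, an epoxide hydrolase, was called higher (0.76) and Bach2 lower (-0.59). Erythroid markers summed to 642 to 649 CPM in control and 495 to 696 CPM in shRNA libraries, and granulocyte-monocyte markers to 181 to 189 and 208 to 268 CPM. Of 10 granulocyte-monocyte markers, 3 were tested and 0 called. At 0 were Mpo, Ctsg, S100a8 and S100a9 in the control, Elane, S100a8 and S100a9 in shRNA1, and Ctsg, Cebpe, S100a8 and S100a9 in shRNA2 libraries. Of 7 erythroid markers tested, 1 was called lower (Hbb-bs) and 0 higher. Their part in these values was not tested.

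After transplantation 0 of 51 members were called, as were 0% of the 20350 genes tested (edgeR). At an unadjusted p below 0.05 there were 0 members and 1138 genes, and DESeq2 called 0 members and 31 genes. Gclm was at 258 and 244 CPM with the control and 255 to 282 CPM with an shRNA, a log2 fold change of 0.10 (adjusted p = 0.928, edgeR). The members that rose with age had values of -0.83 for Gpx8, -0.50 for Gstm2, -0.42 for Mt2, -0.30 for Mt1, 0.00 for Gpx3, 0.07 for Gstm6 and 0.29 for Gstm7, and Mgst1 had 0.48, with the lowest adjusted p over all members at 0.881 (edgeR). With shRNA1 and shRNA2 alone, Gpx8 had -0.36 and -1.54 (adjusted p = 0.972 and 0.35, edgeR) and Gstm2 had -0.21 and -0.87 (adjusted p = 0.953 and 0.121, edgeR), and the difference between the shRNAs was not tested.

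**Figure D4:**
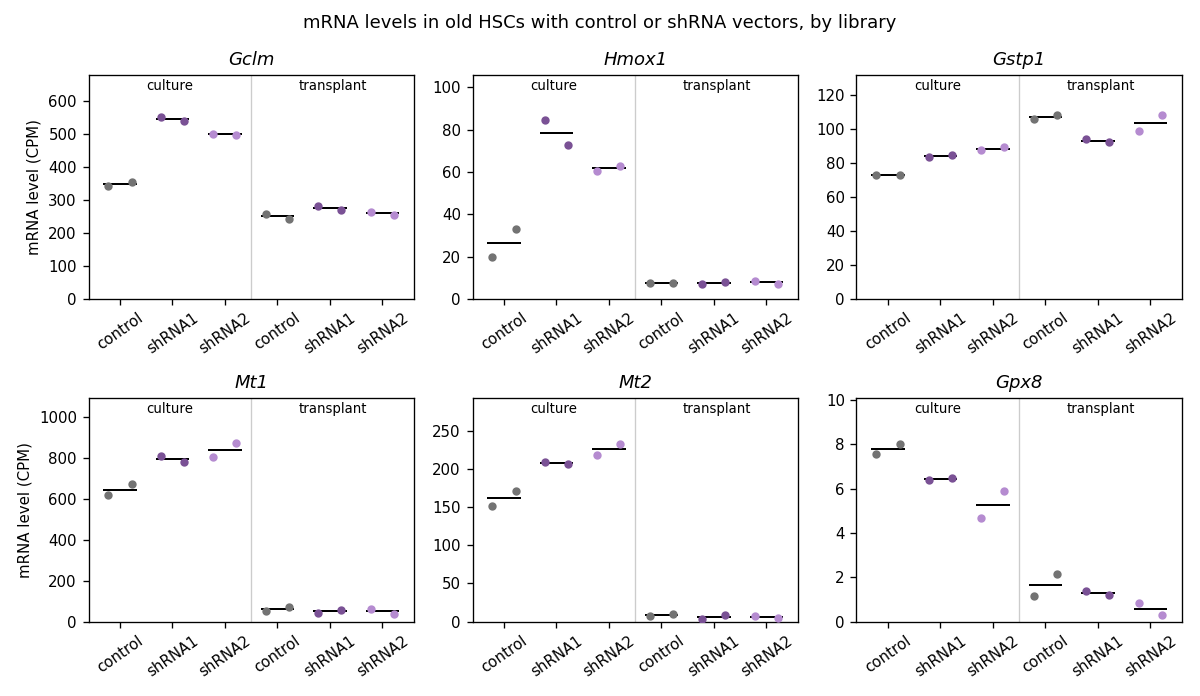
mRNA level in CPM of Gclm, Hmox1, Gstp1, Mt1, Mt2 and Gpx8 in old HSCs with control, shRNA1 or shRNA2 vectors, in culture (left of each panel) and after transplantation (right). Points are the 2 libraries of each group and lines their means. In culture the shRNA libraries of Gclm and Hmox1 lie above both controls, and after transplantation the groups of Hmox1 lie between 7.20 and 8.51 CPM.

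The knockdown effect differed between culture and transplantation for 3 members at an adjusted p below 0.05 (edgeR interaction term). These were Hmox1, with a difference of 1.32 on the log2 scale (adjusted p = 0.0292), Gclm with 0.49 (adjusted p = 0.00211) and Gstp1 with 0.36 (adjusted p = 0.0312). The share of all genes at that adjusted p and any fold was not computed, so the count of 3 has no background. Hmox1 alone exceeded 1.5-fold, 1 of 51 members against 0.476% of all genes. That call was kept without either culture control library, and it was lost without any 1 of the other 10 libraries, at differences between 1.26 and 1.38.

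Between the control HSCs of the 2 places, metallothioneins were far higher in culture. Mt2 was at 152 and 171 CPM in culture and 6.74 and 9.87 CPM after transplantation, a log2 fold change of 4.29 (SE 0.352, adjusted p = 6.58e-05, edgeR). Mt1 was at 619 and 672 against 50.8 and 72.6 CPM, a log2 fold change of 3.39 (SE 0.267, adjusted p = 5.78e-05, edgeR). Of 51 members, 8 were called higher and 8 lower in culture, against 11.4% and 13.9% of the 21443 genes tested, with a median of -0.16 over members and -0.03 over all genes. Place, sort gate and time since transduction differ together between these groups and cannot be told apart. RNA of transplanted HSCs was extracted with phenol-chloroform, and the sources used here do not name the method for the cultured cells.

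Gpx8 (log2 fold change 2.25), Hmox1 (1.85), Nqo1 (0.82) and Sod1 (0.69) were also higher in culture, as were Mgst3 (0.66) and Txn1 (0.60). The lower members were led by Gpx7 (-2.57), a peroxidase of the endoplasmic reticulum, Mgst2 (-2.51) and Gstm6 (-2.36). Gsta4, Gstm1, Gstm7, Mgst1 and Gstk1 completed the list with values between -1.54 and -0.62. The call of Mgst3 was lost without any 1 of the 4 libraries and that of Mgst1 without any 1 of 3 of them, while those of Gstk1 and Txn1 were lost without control library 1 in culture and without control library 1 after transplantation. Cat, Nfe2l2, Keap1 and Gpx1 had log2 fold changes of 0.12, 0.11, 0.05 and 0.06, none of which passed the test. Of NADPH and NRF2 target genes, 9 of 20 were higher, with the cystine transporter Slc7a11 at 3.60, and 4 were lower, with Txnip at -2.54. Of 10 HSC markers, 6 were lower and 1 higher in culture. Megakaryocyte markers summed to 1590 to 1620 CPM in culture and 593 to 762 CPM after transplantation. Plasma cell markers summed to 818 to 836 and 223 to 240 CPM, and erythroid markers to 642 to 649 and 1240 to 1690 CPM. The part of these markers in the values of the members was not tested.

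MEP differed from both other progenitors of young mice in most members. Between MEP and GMP, 24 of 48 members were higher and 16 lower in MEP, against 16.6% and 27.2% of the 18234 genes tested, and the median log2 fold change was 0.52 over members and -0.03 over all genes. Between MEP and CMP, 23 were higher and 13 lower, against 17.5% and 29.2%, with medians of 0.27 and -0.07. GMP and CMP were closer, with 9 higher and 7 lower in GMP, against 6.24% and 10.5%, and medians of 0.13 and 0.01. The MEP and GMP libraries carried very different lineage transcripts, with erythroid markers at 36.8 to 48.8 CPM in GMP and granulocyte-monocyte markers at 35.8 to 64.1 CPM in MEP, and these comparisons share libraries. Megakaryocyte markers summed to 29.1 to 30.4 CPM in MEP, against 642 to 645 CPM in CMP and 78.7 to 127 CPM in GMP. All 7 tested were lower in MEP than in CMP, while against GMP 2 were higher and 2 lower. The MEP values thus come from libraries rich in erythroid and poor in megakaryocyte markers.

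**Figure D5:**
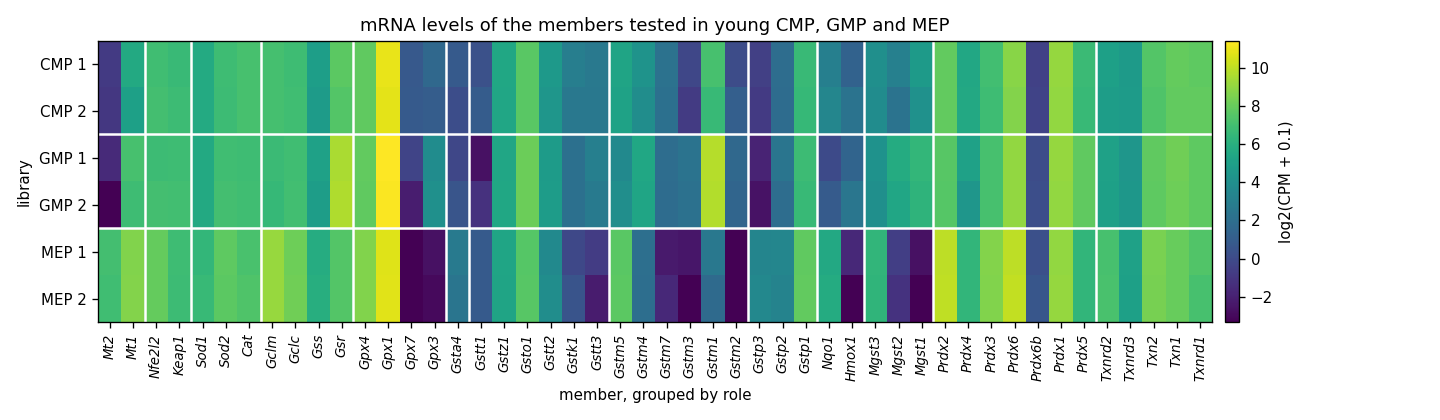
mRNA level, as log2(CPM + 0.1), of the 48 members tested in the 2 libraries each of young CMP, GMP and MEP, with members grouped by role between white lines. Mt2, Nqo1 and Gstp3 are brightest in MEP, and Mgst1, Gstm2 and Gpx3 are dark in MEP.

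Mt2 was at 130 and 121 CPM in MEP, 0.458 and 0.414 CPM in CMP, and 0.242 and 0.0 CPM in GMP. The log2 fold change of MEP was 9.93 against GMP (SE 0.264, adjusted p = 2.10e-11, edgeR) and 8.16 against CMP (adjusted p = 2.49e-11, edgeR). The value against GMP, where 1 library held no read, ran from 8.99 to 15.13 with 1 library left out. Mt1 stood at 398 and 404 CPM in MEP, 141 and 116 CPM in GMP and 49.3 and 33.4 CPM in CMP. MEP was higher than GMP by a log2 fold change of 1.64 (adjusted p = 0.00373, edgeR) and than CMP by 3.28 (adjusted p = 0.000438, edgeR), and GMP was higher than CMP by 1.63 (adjusted p = 0.00916, edgeR), a call lost without GMP library 1, at 1.49. For Mt2 the log2 fold change of GMP against CMP was -1.77 (adjusted p = 0.0517, edgeR), which was not called and rests on 8 reads in GMP and 34 in CMP, and the difference between Mt1 and Mt2 was not tested.

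Against GMP, MEP had 4 of 7 peroxiredoxins higher and 1 lower (Prdx5, -1.46), 3 of 4 genes of glutathione synthesis and reduction higher and 1 lower (Gsr), and 1 of 4 glutathione peroxidases higher (Gpx4) and 3 lower (Gpx1, Gpx3 and Gpx7). Gpx1, the most abundant member per length, had a log2 fold change of -0.63 in that comparison. Prdx2, the peroxiredoxin known for its abundance in red cells, was at 995 and 1020 CPM in MEP against 192 and 186 CPM in GMP (log2 fold change 2.42, adjusted p = 3.09e-14, edgeR) and 236 and 233 CPM in CMP. Gclm was at 556 and 559 CPM in MEP, 104 and 95.2 CPM in GMP and 134 and 134 CPM in CMP, log2 fold changes of 2.48 and 2.06 for MEP. Gclc, Gss, Nfe2l2, Sod1, Sod2 and Gpx4 were each called higher in MEP than in both other progenitors, with log2 fold changes between 0.76 and 1.31. Nqo1, a quinone reductase, was at 47.1 and 53.7 CPM in MEP, 8.06 and 10.8 CPM in CMP and 0.879 and 1.79 CPM in GMP. Its log2 fold change was 5.25 for MEP against GMP and -2.83 for GMP against CMP. Gstp3 was higher in MEP by 6.41 against GMP and 4.37 against CMP, but counts of the pi class may be shared among near-identical genes.

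Several transferases and peroxidases were nearly absent from MEP. Mgst1 had 2 reads in both MEP libraries together and 86.9 and 77.1 CPM in GMP, a ratio of 2900 with a 95% counting interval from 803 to 24000. Gstm2 had 0 reads in MEP, which puts it at least 68.2-fold lower than in GMP and at least 36.3-fold lower than in CMP, taking 3 reads over the group as the floor. Gpx7 likewise had 0 reads in MEP, at least 10.1-fold lower than in GMP and at least 39.3-fold lower than in CMP. Gpx3 had 3 reads in MEP and 14.3 and 16.4 CPM in GMP, a ratio of 360 with an interval from 123 to 1750. These intervals cover counting error only. Hmox1 was at 0.226 and 0.0 CPM in MEP and lower there than in GMP (log2 fold change -5.08, adjusted p = 0.00119, edgeR) and CMP (-4.94, adjusted p = 0.00134, edgeR). With 1 library left out these values ran from -10.13 to -4.11 and from -9.99 to -3.97, the lowest without MEP library 1, where the remaining MEP library held no read.

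Glutathione reductase was higher in GMP than in both other progenitors, and of 6 mu class transferases 3 were higher and 1 lower in GMP than in CMP. Gsr was at 754 and 808 CPM in GMP, 205 and 176 CPM in CMP and 179 and 175 CPM in MEP, a log2 fold change of 2.04 against CMP (SE 0.0664, adjusted p = 2.57e-09, edgeR). Gstm3 (2.89), Gstm1 (2.87) and Mgst2 (2.85) had the largest log2 fold changes of GMP against CMP, and Gstt1 (-2.98), Nqo1 and Gstp3 (-2.04) the lowest. The lower mu class gene was Gstm5 (-1.39), which was higher in MEP than in GMP by a log2 fold change of 3.85, while Gstm2 and Gstm7 were not called between GMP and CMP. Gstt1 ranged from -4.57 to -2.21 with 1 library left out. The call of Gstp3 was lost without GMP library 2, at -1.52, and those of Gpx7, Gstk1 and Prdx4 were each lost without 1 or more of the libraries. Gstm1 reached 851 ± 23.2 CPM in GMP, against 117 ± 28.1 CPM in CMP and 4.55 ± 1.78 CPM in MEP (SD, n = 2 each). Per kilobase of exon, Gpx1 led in all 3 progenitors, at 1320 ± 75.4 in CMP, 1830 ± 78.3 in GMP and 1190 ± 31.0 CPM per kb in MEP. Second place went to Txn1 in CMP, Gstm1 in GMP and, in MEP, Prdx2 (331 ± 6.5 CPM per kb) or Mt1 (322 ± 3.42 CPM per kb), whose mean ± SD overlapped. Keap1 and Prdx1 were called in none of the 3 comparisons, with log2 fold changes between -0.07 and 0.17.

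In the wider pathway, 4 of 19 NADPH and NRF2 target genes were higher and 8 lower in MEP than in GMP. The biliverdin reductase gene Blvrb (6.58) and the ferritin heavy chain gene Fth1 (1.63) were among the higher ones, and Osgin1 and Idh1 (-3.99) among the lower. Of 15 glutaredoxin and glutathione handling genes, 6 were higher and 4 lower, of 14 regulators 4 and 4, and of 12 zinc and metal response genes 2 and 4. Among all genes 16.6% were higher and 27.2% lower, and the zinc and metal response list was near those shares. The zinc exporter gene Slc30a1 was 1 of the 2 higher zinc genes. Against CMP, 7 of 19 NADPH and NRF2 target genes were higher and 6 lower in MEP, and 0 of 14 regulators were higher and 5 lower. Glutaredoxin and glutathione handling genes had 7 higher and 3 lower there, and zinc genes 3 and 5. All genes had 17.5% higher and 29.2% lower in that comparison. Slc7a11 was lower in MEP than in GMP but higher than in CMP.

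Levels of some members called with age are set side by side with those in the other old HSCs. Mt1, at 23.4 to 27.9 CPM in young and 125 to 152 CPM in old HSCs, lay between 38.9 and 72.6 CPM in the 6 libraries of old HSCs after transplantation and between 619 and 871 CPM in the 6 cultured ones. Gstm2, at 88.7 to 122 CPM in old HSCs, lay between 30.4 and 67.4 CPM after transplantation and between 41.4 and 44.2 CPM in culture. Gpx3, at 16.6 to 26.5 CPM in old HSCs, lay between 2.13 and 3.93 CPM after transplantation and between 1.28 and 2.93 CPM in culture. Gstm7, at 21.2 to 29.1 CPM in old HSCs, lay between 21.9 and 33.1 CPM after transplantation and between 9.84 and 12.2 CPM in culture. Scaling was set within each experiment, and kits, sequencers and sort gates differed between them, so these levels carry no test.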

How the data were processed

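Gene counts of 30 RNA libraries were deposited by the authors, made with featureCounts from STAR alignments to mm10 of reads trimmed by cutadapt. No source used here gives the strand and multimapping settings. ATAC-seq counts over consensus peaks of 8 libraries were also deposited, after BWA alignment, removal of duplicate and multimapped reads, and MACS2 peak calling. For histone marks the authors deposited a signal per peak. Their methods scale these libraries to an equal read number and average the signal in bins across the genome, without saying whether the values per peak were taken from those bins.

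Counts were fitted with edgeR 4.0.16 in R 4.3.3 (TMM, filterByExpr, robust quasi-likelihood test, Benjamini-Hochberg), separately for the HSC age series, the progenitors and the knockdown in each place. The interaction and the comparison of places used all 12 knockdown libraries. ATAC-seq regions needed over 1.5 CPM in at least 4 libraries. Alternatives included DESeq2 1.42.0, other size factors, no filter, other thresholds, a replicate block and leaving out each library. The fitting code was tested on simulated data. Lengths and start sites came from GENCODE M21. No duplicated library was found, and 92 spike-in genes and 8 columns of per-sample values that match no sample were not used.

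The members and lists were chosen with earlier results of these data known. Named were the members called with age, the 3 largest rises and falls called in each other comparison, a fixed list of core genes (such as Mt1, Nfe2l2 and Cat), the highest member per length of each role, and called genes of the pathway lists by count with examples.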

Additional observations from a re-analysis of the deposited data

Results flagged for a closer look

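Of 58 groups of library values examined, 4 held a library far from the others, and chance alone gives about 1 in 20. Gpx8 was at 3.74 CPM in young HSC library 4, while the other young libraries lay between 2.59 and 2.75 CPM. Prdx1 was at 393 CPM in young HSC library 3, against 368 to 372 CPM in the others. In old HSC library 3, Hmox1 was at 68.0 CPM against 7.96 to 26.4 CPM, and Mgst1 at 14.8 CPM against 6.72 to 10.3 CPM.

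The effect of the shRNAs differed between culture and transplantation, by the edgeR interaction term, for 3 members at an adjusted p below 0.05. The share of all genes at that cut-off was not computed. The difference of log2 fold changes was 1.32 for Hmox1 (adjusted p = 0.0292, edgeR), 0.49 for Gclm (adjusted p = 0.00211, edgeR) and 0.36 for Gstp1 (adjusted p = 0.0312, edgeR). In culture all 4 shRNA libraries were above both controls for each of Hmox1 and Gclm.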

How the results depend on the processing

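Over 242 values recomputed under the alternatives (2448 values in all), 2378 kept their direction and side of the threshold, 53 lost a call, 10 gained one, 7 moved (ratios of H3K27ac peaks) and 0 reversed. Sign changes of an uncalled value smaller than its SE were not counted as reversals. Dropping the fold threshold raised the number of members called from 8 to 24 with age, from 1 to 6 in the cultured knockdown, from 16 to 37 between culture and transplantation and from 16 to 27 between GMP and CMP. The share of all genes without the fold threshold was computed for the age comparison only. In the cultured knockdown, DESeq2 called 2 members, an unadjusted p gave 2, shRNA2 alone gave 0, and leaving out 1 library gave 0 to 2. For the difference between the knockdown effects, DESeq2 called 2, no filter on low counts gave 5 and leaving out 1 library gave 0 to 1. H3K27ac peaks past the rule numbered 7, and 6 to 11 with 1 library left out. The causes were not tested. Where a group was left with 1 library, that library was assumed to vary like the other groups.

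Same-numbered libraries did not deviate together (correlations from -0.225 to 0.058), so the numbers do not pair the samples. With the replicate number as a block, 7 members were called with age, 1 in the cultured knockdown, 0 after transplantation, 16 between places, and 40, 35 and 15 between progenitors (MEP and GMP, MEP and CMP, GMP and CMP). Gstm7 was the age call lost under the block, at 0.53. Uncalled values that gained a call were Txnrd1 in MEP against GMP (-0.62 without MEP library 1) and Mt2 in GMP against CMP (-6.98 without GMP library 1), among others.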
